A study of Mus musculus with 8 samples.

Results

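The collagen genes of the mouse were described across RNA sequencing libraries of dorsal root ganglia (DRG), which house the cell bodies of sensory neurons. All genes whose symbol has the form Col, a number, a and a number were taken, which gave 44 of the 25780 genes in the count files. They were grouped by the class of protein they encode: 11 fibrillar collagen genes, 6 type IV (basement membrane) genes and 27 others, of which 42 genes in all had enough reads to be tested. Col4a6, with 0 to 7 reads per library, and Col9a1, with 0 to 22, were not tested. The inducible knockout mice (G9a-iKO, here iKO) carried Avil-iCreERT2/AJwo and G9aflox/flox, so that the gene Ehmt2, which encodes the histone methyltransferase G9a, is deleted where an inducible Cre driven by the sensory neuron gene Avil is active. Wild-type mice (WT) were littermates that lack Cre, and whether they were floxed was not stated. Mice of both genotypes had vehicle or CFA (complete Freund's adjuvant, an agent that causes lasting inflammation) given to the left paw, and tissue was taken after 14 days. This made 4 groups of 2 libraries each: WT vehicle, WT CFA, iKO vehicle and iKO CFA. The age and sex of the mice, the induction of Cre, the side of the ganglia, and whether a library is 1 animal or a pool were not stated, so the tests measure only how far these libraries spread, which may be technical.

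Collagens are triple-helical proteins of the extracellular matrix. Fibrillar collagens (types I, II, III, V, XI, XXIV and XXVII) assemble into the fibrils of connective tissue, with type V and XI chains setting fibril assembly and thickness. Type IV collagen forms the sheet-like network of basement membranes, type VI forms beaded filaments beside cells, and the FACIT collagens (fibril-associated collagens with interrupted triple helices) sit on the surface of fibrils. In ganglion and nerve the collagens are made mainly by fibroblasts, Schwann cells, perineurial cells and vessel cells, while the deletion here is driven by a gene of sensory neurons. In bulk tissue fewer cells of a type and less RNA per cell cannot be told apart.

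To show the control regions of the genes on which the results turn, the 250 bases upstream of the RefSeq transcript start (build GRCm38.p6, 5′ to 3′ on the gene's strand) are printed for Col1a2 and Col3a1, the most abundant fibrillar chains, and for Col5a3, Col24a1 and Col27a1, the fibrillar genes with large differences. Capitals mark matches on either strand to 3 motifs, the CCAAT box, the TATAAA box and the GC box GGGCGG, which is printed as CCGCCC where it lies on the opposite strand. The Col1a2 window (chr6:4505368-4505617, plus strand) holds 2 GGGCGG matches and 1 CCAAT match, the Col3a1 window (chr1:45311288-45311537, plus strand) 1 TATAAA match, the Col5a3 window (chr9:20815068-20815317, minus strand) 1 CCAAT match and 2 GGGCGG matches, the Col24a1 window (chr3:145292222-145292471, plus strand) none of these letters, and the Col27a1 window (chr4:63215162-63215411, plus strand) 1 GGGCGG match.
Col1a2: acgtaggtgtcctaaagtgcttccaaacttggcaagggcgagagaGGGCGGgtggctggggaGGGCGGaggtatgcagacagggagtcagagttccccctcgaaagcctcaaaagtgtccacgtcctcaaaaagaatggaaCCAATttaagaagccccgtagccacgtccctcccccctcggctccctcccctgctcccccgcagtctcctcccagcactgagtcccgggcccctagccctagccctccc
Col3a1: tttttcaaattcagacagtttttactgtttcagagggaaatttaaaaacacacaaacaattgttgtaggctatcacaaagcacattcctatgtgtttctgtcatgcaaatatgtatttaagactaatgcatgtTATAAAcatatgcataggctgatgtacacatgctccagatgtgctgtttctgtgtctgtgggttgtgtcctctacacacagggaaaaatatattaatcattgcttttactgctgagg
Col5a3: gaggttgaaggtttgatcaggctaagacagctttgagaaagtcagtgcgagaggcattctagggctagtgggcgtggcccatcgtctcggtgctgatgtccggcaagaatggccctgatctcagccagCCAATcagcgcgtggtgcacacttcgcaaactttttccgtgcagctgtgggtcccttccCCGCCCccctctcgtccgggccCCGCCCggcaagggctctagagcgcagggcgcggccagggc
Col24a1: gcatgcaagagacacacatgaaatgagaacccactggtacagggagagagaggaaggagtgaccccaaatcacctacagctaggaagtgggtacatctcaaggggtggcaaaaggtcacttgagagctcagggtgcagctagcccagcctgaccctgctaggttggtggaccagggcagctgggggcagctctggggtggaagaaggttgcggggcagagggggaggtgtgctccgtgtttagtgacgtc
Col27a1: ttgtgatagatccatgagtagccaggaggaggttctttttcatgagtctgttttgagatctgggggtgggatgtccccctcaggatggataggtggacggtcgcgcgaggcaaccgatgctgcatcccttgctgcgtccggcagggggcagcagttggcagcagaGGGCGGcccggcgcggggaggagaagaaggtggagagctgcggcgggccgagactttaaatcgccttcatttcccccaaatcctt

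Of the 44 collagen genes, 35 had a promoter in the RefSeq table, in 38 windows. CCAAT was in 13 of the 38 windows, against 33.8% of 32851 promoters of the same length over all genes. TATAAA was in 5 windows, against 12.4%, and GGGCGG in 22 windows, against 32.7%. GGGCGG holds only G and C, and the promoters compared were not matched for base composition. The share of G and C ran from 35.2% (Col3a1) to 76.4% (Col5a1) in the collagen windows, where the median of all promoters was 52.4%. A match is a description of letters and not evidence of a bound factor. Col4a1 and Col4a2, which encode the chains of the common type IV trimer, lie head to head, and the 22 bases shared by their transcript starts (chr8:11312801-11312830, plus strand, GRCm38.p6, shared bases in capitals) are
Col4a1/Col4a2: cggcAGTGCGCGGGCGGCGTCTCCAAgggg

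Before the members, 4 facts of the libraries bear on every comparison below. Total reads ran from 26312614 to 42971823 per library. Both WT vehicle libraries stood apart from the other 6: the nuclear RNA Malat1 had 1323 and 1187 counts per 1000000 reads (CPM) there against 27.4 to 57.0 elsewhere, and the summed level of 6 RNA-state genes (Malat1, Meg3, Neat1, Fos, Egr1 and Junb) was 3029 to 3345 CPM against 79.1 to 138. The state of these 2 libraries and the WT vehicle group cannot be told apart. WT vehicle replicate 1 alone held skeletal muscle transcripts (9 markers summing to 440.5 CPM, against 2.64 to 8.07 elsewhere), and WT CFA replicate 2 had 12.1% of its reads on mitochondrial genes, against 1.34 to 6.09% elsewhere. Ehmt2 itself had 74.4 and 65.4 CPM in WT vehicle, 74.2 and 61.3 in WT CFA, 34.0 and 31.6 in iKO vehicle, with 44.95 and 44.16 in iKO CFA, and all 8 sensory neuron markers were present in every library, as the labels of genotype and tissue state.

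Collagen reads made up 0.303 and 0.194% of all reads in WT vehicle, 0.111 and 0.192% in WT CFA, 0.106 and 0.110% in iKO vehicle, with 0.212 and 0.230% in iKO CFA. The replicates of both iKO groups lay close together, while those of both WT groups were far apart. WT CFA replicate 2 was the higher of its pair in 32 of 42 tested collagen genes (median log2 ratio 0.66), whereas WT vehicle replicate 2 was higher in only 6 of 42 (median -0.41). The summed CPM of the fibrillar genes was 1546 and 914 in WT vehicle, 678 and 1182 in WT CFA, 553 and 559 in iKO vehicle, with 1146 and 1242 in iKO CFA. The type IV genes summed to 311 and 223, 181 and 276, 179 and 182, and 232 and 233 CPM in the same order. For the other collagens the sums were 811 and 579, 379 and 652, 381 and 400, and 714 and 765 CPM. In each class the iKO CFA libraries lay above the iKO vehicle libraries and the WT groups overlapped. With 2 libraries against 2 an exact two-sided permutation test of such a sum cannot go below p = 0.333.

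**Figure D1:**
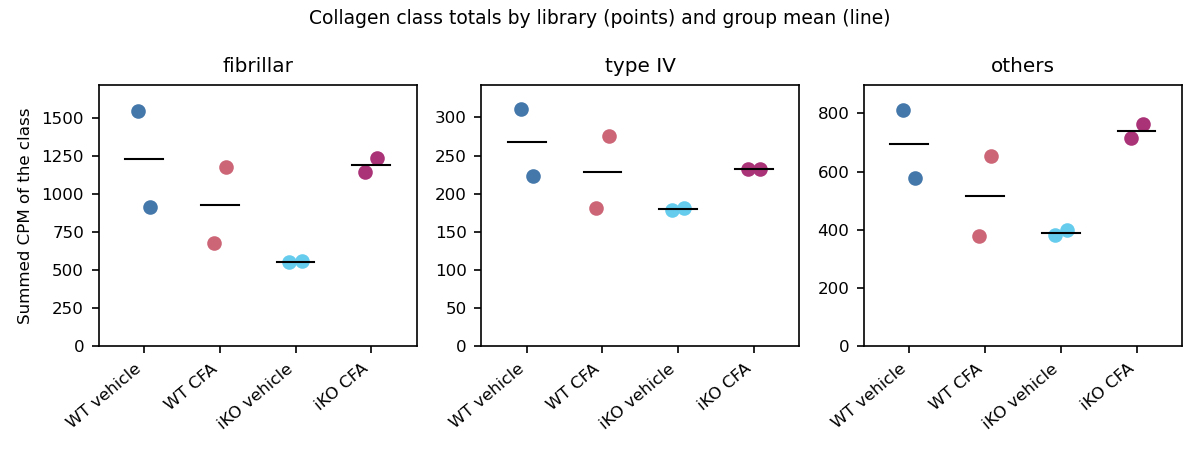
Summed CPM of the fibrillar, type IV and other collagen genes (vertical axes, linear, from 0) in each of the 8 libraries (points) with the group mean (line). The fibrillar total lies between 553 and 559 CPM in iKO vehicle but between 1146 and 1242 in iKO CFA, while the WT groups overlap.

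Levels between genes were compared per length, as CPM per kilobase of exon (GENCODE M21 exon lengths, since the annotation behind the counts was not stated). Col1a2, the α2 chain of type I collagen, was the highest in all 4 groups, with group means of 70.6 CPM per kilobase in WT vehicle (libraries at 88.5 and 52.7), 72.9 in WT CFA (54.5 and 91.2), 46.5 in iKO vehicle (45.2 and 47.9), with 88.8 in iKO CFA (83.9 and 93.8). Col3a1, the chain of type III collagen, and Col1a1 came next in WT vehicle at 39.1 and 34.5, and their ranges overlapped. Col28a1, the gene of a collagen described in peripheral nerve, was the fourth in WT vehicle at 28.9 and the second in iKO vehicle at 24.4 CPM per kilobase. Col5a3, another chain of type V collagen, was the fifth in WT vehicle at 25.985 and number 12 in WT CFA at 5.49 CPM per kilobase. The 4 leading ranks were held by Col1a2, Col3a1, Col1a1 and Col28a1 in every group, in this order in 3 groups, while in iKO vehicle the order was Col1a2, Col28a1, Col1a1 and Col3a1.

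**Figure D2:**
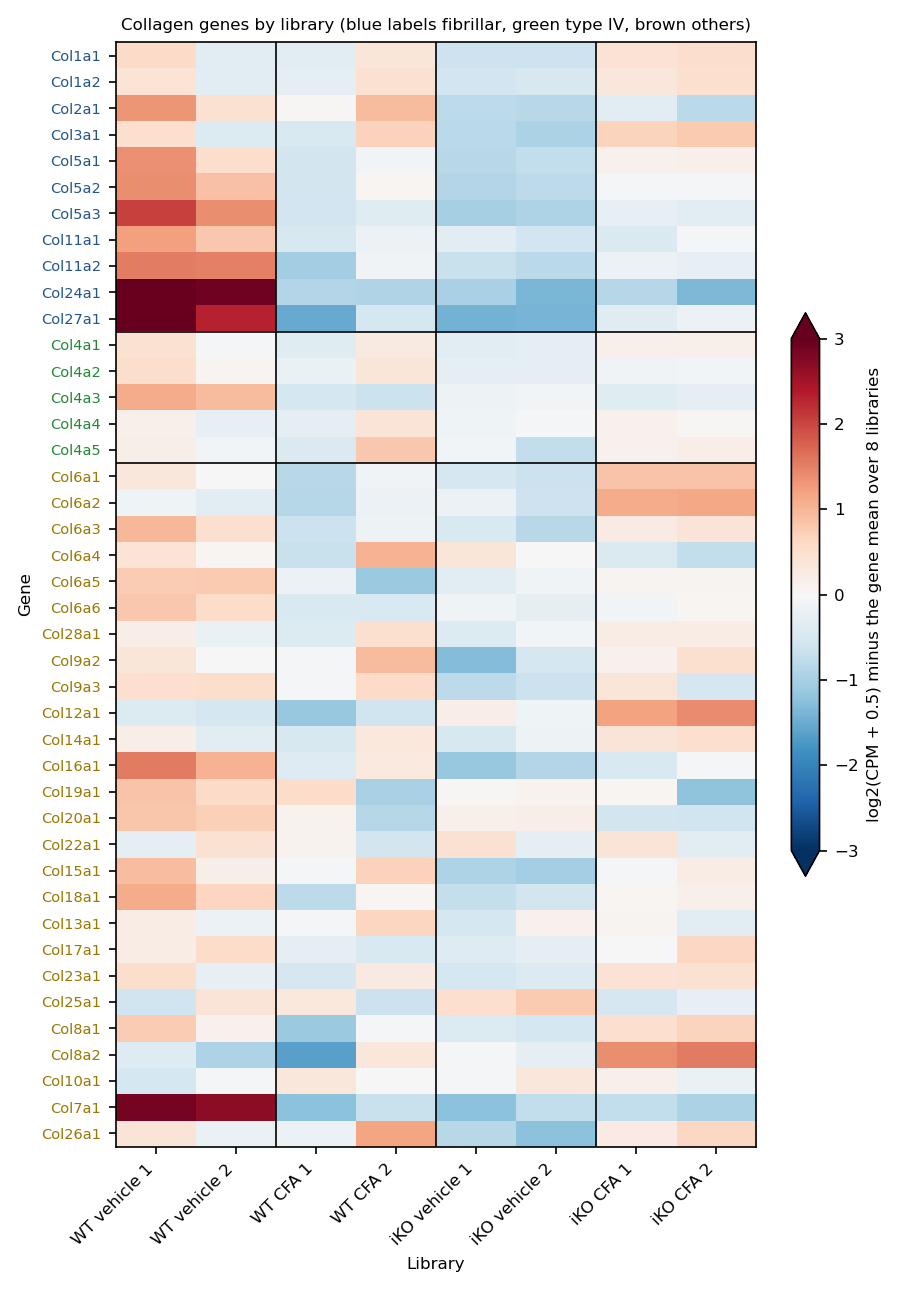
Tested collagen genes (rows, grouped by class) in the 8 libraries (columns), with color giving log2(CPM + 0.5) minus the mean of that gene over the 8 libraries, cut at -3 and 3. Col5a3, Col24a1, Col27a1, Col11a2 and Col7a1 are high in both WT vehicle libraries and low in the other 6, while Col12a1, Col6a1 and Col6a2 are highest in both iKO CFA libraries.

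Differences were tested with edgeR's quasi-likelihood test, fitted over 20235 genes and all 8 libraries with Benjamini-Hochberg adjustment, and a gene was called at an adjusted p below 0.05. Fold changes below are log2 ± standard error (SE) from that fit. In WT, CFA against vehicle called 13 of 42 collagen genes lower and 0 higher, where 8.71% of all genes tested were lower and 8.12% higher. Under vehicle, iKO against WT also called 13 lower and 0 higher, against a background of 9.33% lower and 8.28% higher. In iKO, CFA against vehicle called 0 collagen genes (0.0395% of all genes), with 20 at an unadjusted p below 0.05 in the higher and 2 in the lower direction, where 13.8% and 14.8% of all genes were at such a p. Under CFA, iKO against WT called 3 higher and 0 lower, against 1.50% and 0.208% of all genes. The interaction, which is the CFA response in iKO minus that in WT, called 15 in the positive direction and 0 in the negative, against 6.19% and 3.17% of all genes (9.36% in either direction). The median log2 change of the tested collagens was -0.42, -0.98, 0.76, 0.23 and 1.34 in these 5 comparisons, where the median of all genes was -0.03, 0.01, -0.00, -0.02 and -0.04. Without overlap between libraries, 20 collagen genes were lower and 1 was higher with CFA in WT (30.8% and 25.3% of all genes), and 31 were lower and 4 higher in iKO under vehicle (36.5% and 38.9% of all genes). Under CFA 16 were higher and 1 lower in iKO without overlap (21.6% and 16.7% of all genes). The WT response to CFA and the genotype difference under vehicle both use the WT vehicle libraries, as does the interaction, so their values are given side by side and do not support each other.

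Single libraries moved these counts, and the share of all genes called moved with them. For the WT response, 3 collagen genes were called lower without WT vehicle replicate 1 (1.11% of all genes lower), 8 without WT vehicle replicate 2 (3.78%) and 20 without WT CFA replicate 2 (13.3%), and 4 when only both WT groups were fitted (3.84%). For iKO against WT under vehicle, 5 were lower without WT vehicle replicate 1 (1.38% of all genes lower), 6 without either iKO vehicle replicate (2.17% and 1.47%) and 27 without either WT CFA replicate (17.9% and 17.6%). Col5a3, Col24a1 and Col27a1 stayed called lower under each of the alternatives run for both comparisons. None of these left out both WT vehicle libraries, so they cannot separate the calls from the state of those libraries. Leaving out 1 of 2 libraries leaves a lone library, which the fit assumes to vary like the other groups.

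**Figure D3:**
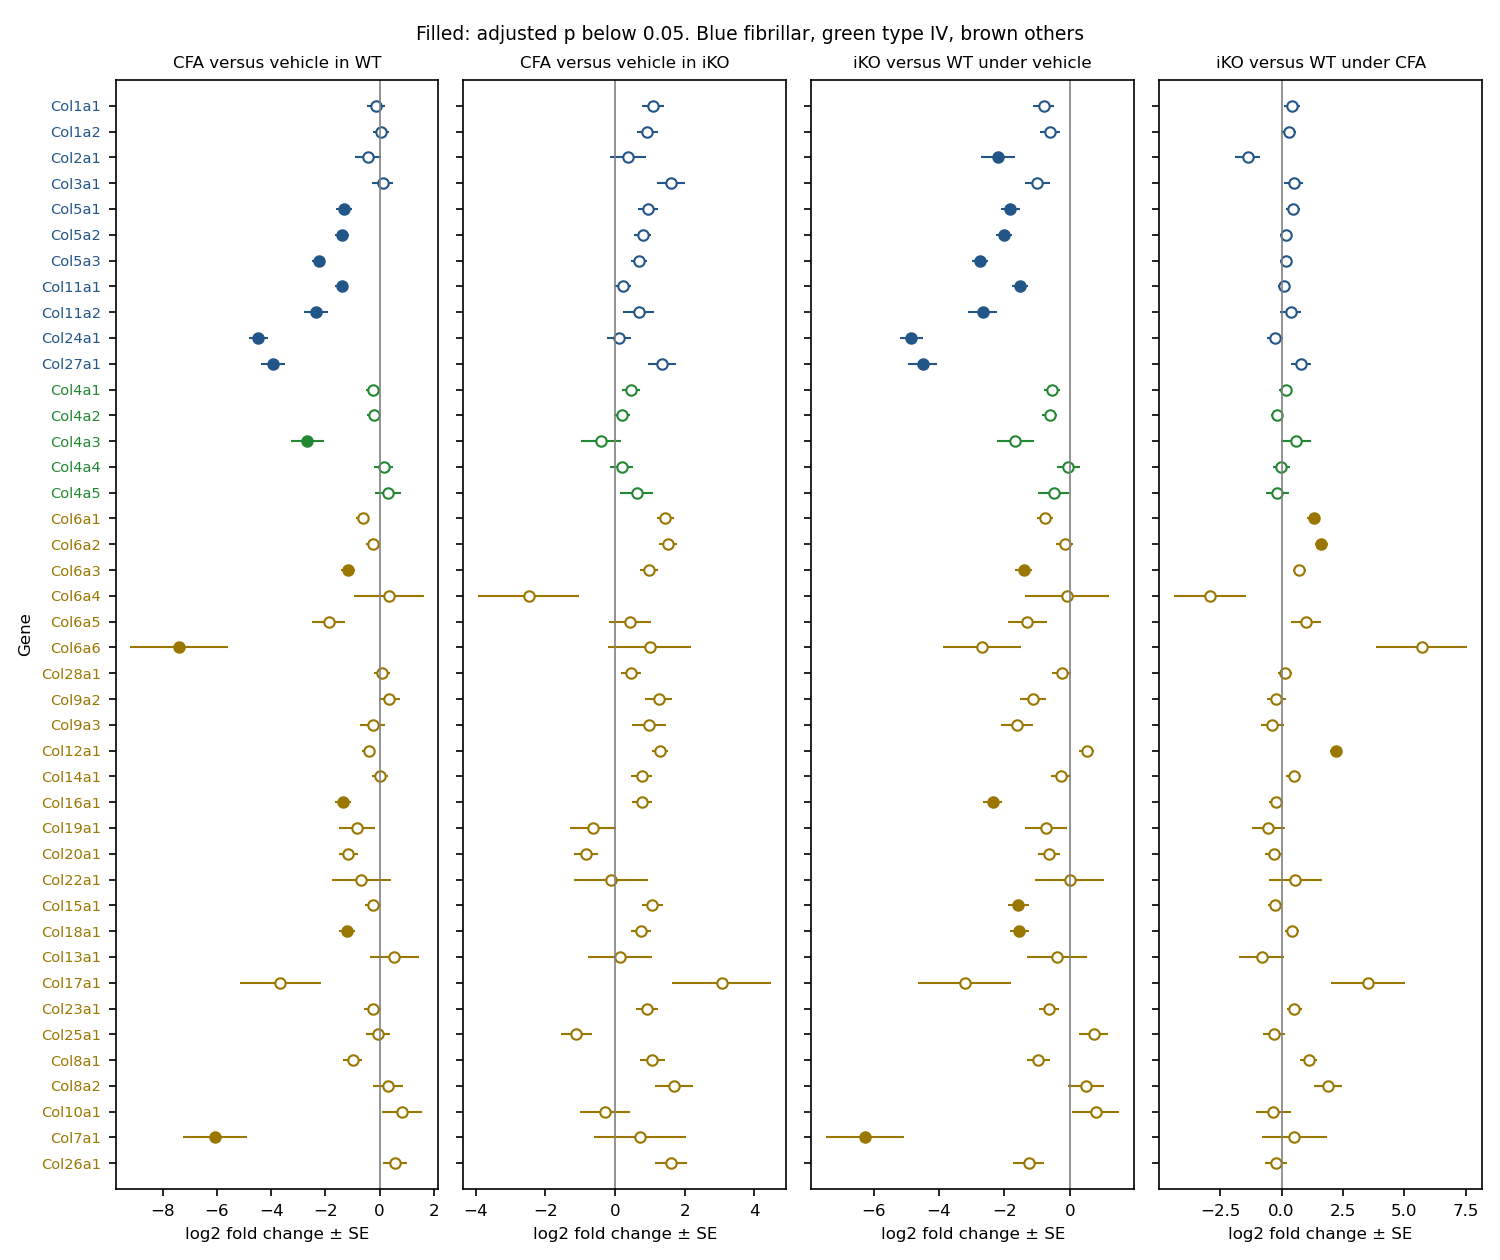
Log2 fold change of each tested collagen gene (rows, by class) in the 4 pairwise comparisons, with horizontal bars for the SE and filled symbols for genes called at an adjusted p below 0.05. The calls lie to the left in the WT response and under vehicle, and to the right, for Col6a1, Col6a2 and Col12a1, under CFA; the fitted value of Col6a6 in WT rests on a group with 0 reads and is no estimate of size.

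Among the fibrillar collagens the chains of types V, XI, XXIV and XXVII were lower than in WT vehicle, and those of types I and III were not called. In WT, 7 of 11 fibrillar genes were called lower with CFA than with vehicle (median log2 change -1.38). They were Col5a1, Col5a2, Col5a3, Col11a1, Col11a2, Col24a1 and Col27a1. Under vehicle, 8 of 11 were called lower in iKO than in WT (median -2.02), these 7 and Col2a1. Both comparisons use the WT vehicle libraries, whose state cannot be told apart from that group. Under CFA 0 of 11 were called between the genotypes by edgeR or DESeq2, with 0 higher and 1 lower at an unadjusted p below 0.05, where 9.06% and 5.60% of all genes were (median 0.29, 9 positive).

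Col24a1, the chain of a fibrillar collagen best known from bone, stood at 35.7 and 26.1 CPM in WT vehicle, 1.42 and 1.37 in WT CFA, 1.27 and 0.861 in iKO vehicle, with 1.45 and 0.877 in iKO CFA. Only the 2 WT vehicle libraries were high, and the other 6 lay between 0.861 and 1.45 CPM. It was 22.1-fold lower with CFA in WT (log2 -4.47 ± 0.35, edgeR adjusted p = 0.000517) and 28.7-fold below WT in iKO with vehicle (-4.84 ± 0.36, adjusted p = 0.000319).

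Levels of Col27a1, which encodes a fibrillar collagen of cartilage, were 49.1 and 28.6 CPM in WT vehicle, 1.55 and 3.59 in WT CFA, 1.72 and 1.72 in iKO vehicle, with 4.10 and 4.69 in iKO CFA. Again the WT vehicle libraries were high without overlap, and iKO CFA lay above iKO vehicle. The change with CFA in WT was -3.93 ± 0.43 (edgeR adjusted p = 0.00172), the difference of iKO from WT under vehicle was -4.49 ± 0.44 (adjusted p = 0.000945), and in iKO the CFA change was 1.35 ± 0.41 (adjusted p = 0.104, not called).

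Type V collagen, which is built into type I fibrils, showed the same order of groups for its 3 chains. Col5a3 had 195 and 123 CPM in WT vehicle, 30.9 and 36.3 in WT CFA, 23.1 and 24.3 in iKO vehicle, with 39.3 and 36.8 in iKO CFA. For Col5a2 the values were 110.4 and 78.0, 28.5 and 43.7, 22.4 and 24.1, and 40.4 and 40.5 CPM. Col5a1 gave 84.3 and 46.6, 21.9 and 30.7, 17.9 and 19.1, and 35.6 and 36.2 CPM. All 3 were highest in both WT vehicle libraries, lowest in iKO vehicle, and higher in iKO CFA than in iKO vehicle without overlap. With CFA in WT, Col5a3 fell by 2.24 ± 0.24 on the log2 scale (edgeR adjusted p = 0.00169), Col5a2 by 1.38 ± 0.25 (0.0109) and Col5a1 by 1.32 ± 0.29 (0.0193). Under vehicle the iKO values were lower than WT by log2 -2.75 ± 0.24, -2.02 ± 0.25 and -1.82 ± 0.29 (edgeR adjusted p = 0.000706, 0.00259 and 0.00613). The Col5a3 to Col5a1 ratio of reads was 2.31 and 2.64 in WT vehicle and 1.02 to 1.41 in the other 6 libraries, so Col5a3 was the chain that stood out most.

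Type XI chains, which co-assemble with type II and type V chains, followed at lower levels. Col11a1 had 34.1 and 25.4 CPM in WT vehicle against 9.39 to 13.6 in the other 6 libraries. Col11a2 had 7.37 and 7.24 CPM in WT vehicle against 0.828 to 2.05 elsewhere. In the other 3 groups the values of Col11a1 overlapped, and Col11a2 was higher in iKO CFA than in iKO vehicle. Col11a1 fell by 1.40 ± 0.25 and Col11a2 by 2.35 ± 0.45 (log2) with CFA in WT (edgeR adjusted p = 0.00999 and 0.013), and both were lower in iKO under vehicle, by -1.53 ± 0.25 and -2.67 ± 0.45 (adjusted p = 0.00632 and 0.00784). Col2a1, the cartilage collagen, read 6.20 and 3.19 CPM in WT vehicle, 2.24 and 4.72 in WT CFA, 1.05 and 1.005 in iKO vehicle, with 1.63 and 1.04 in iKO CFA. It was lower in every iKO library than in every WT library, and the difference was called under vehicle (-2.18 ± 0.52, edgeR adjusted p = 0.0248) and not under CFA (-1.38 ± 0.51, adjusted p = 0.255).

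The abundant fibrillar genes were not called in the fit of all 8 libraries. Col1a2 had 473 and 282 CPM in WT vehicle, 292 and 488 in WT CFA, 242 and 256 in iKO vehicle, with 448 and 502 in iKO CFA. Col1a1 was at 266 and 143, 142 and 231, 117 and 117, and 244 and 257 CPM, and Col3a1 at 285 and 150.4, 147 and 328, 114 and 104, and 318 and 348 CPM. For these 3 genes the WT groups overlapped, and both iKO CFA libraries lay above both iKO vehicle libraries. Under vehicle both iKO libraries lay below both WT libraries, as for the type V chains, by log2 -0.60 ± 0.31 for Col1a2, -0.80 ± 0.32 for Col1a1 and -0.99 ± 0.39 for Col3a1 (edgeR adjusted p = 0.198, 0.11 and 0.111), and both DESeq2 and the fit of those 2 groups alone called Col1a1 and Col3a1 lower there. The WT change with CFA was 0.05 ± 0.30 for Col1a2, -0.13 ± 0.32 for Col1a1 and 0.13 ± 0.39 for Col3a1 (edgeR adjusted p = 0.937, 0.812 and 0.859). In iKO it was 0.93 ± 0.31, 1.10 ± 0.32 and 1.61 ± 0.40 (adjusted p = 0.112, 0.101 and 0.0945), none of them called. The type I chains kept a read ratio of Col1a1 to Col1a2 between 0.457 and 0.562 in all 8 libraries, whatever their level.

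**Figure D4:**
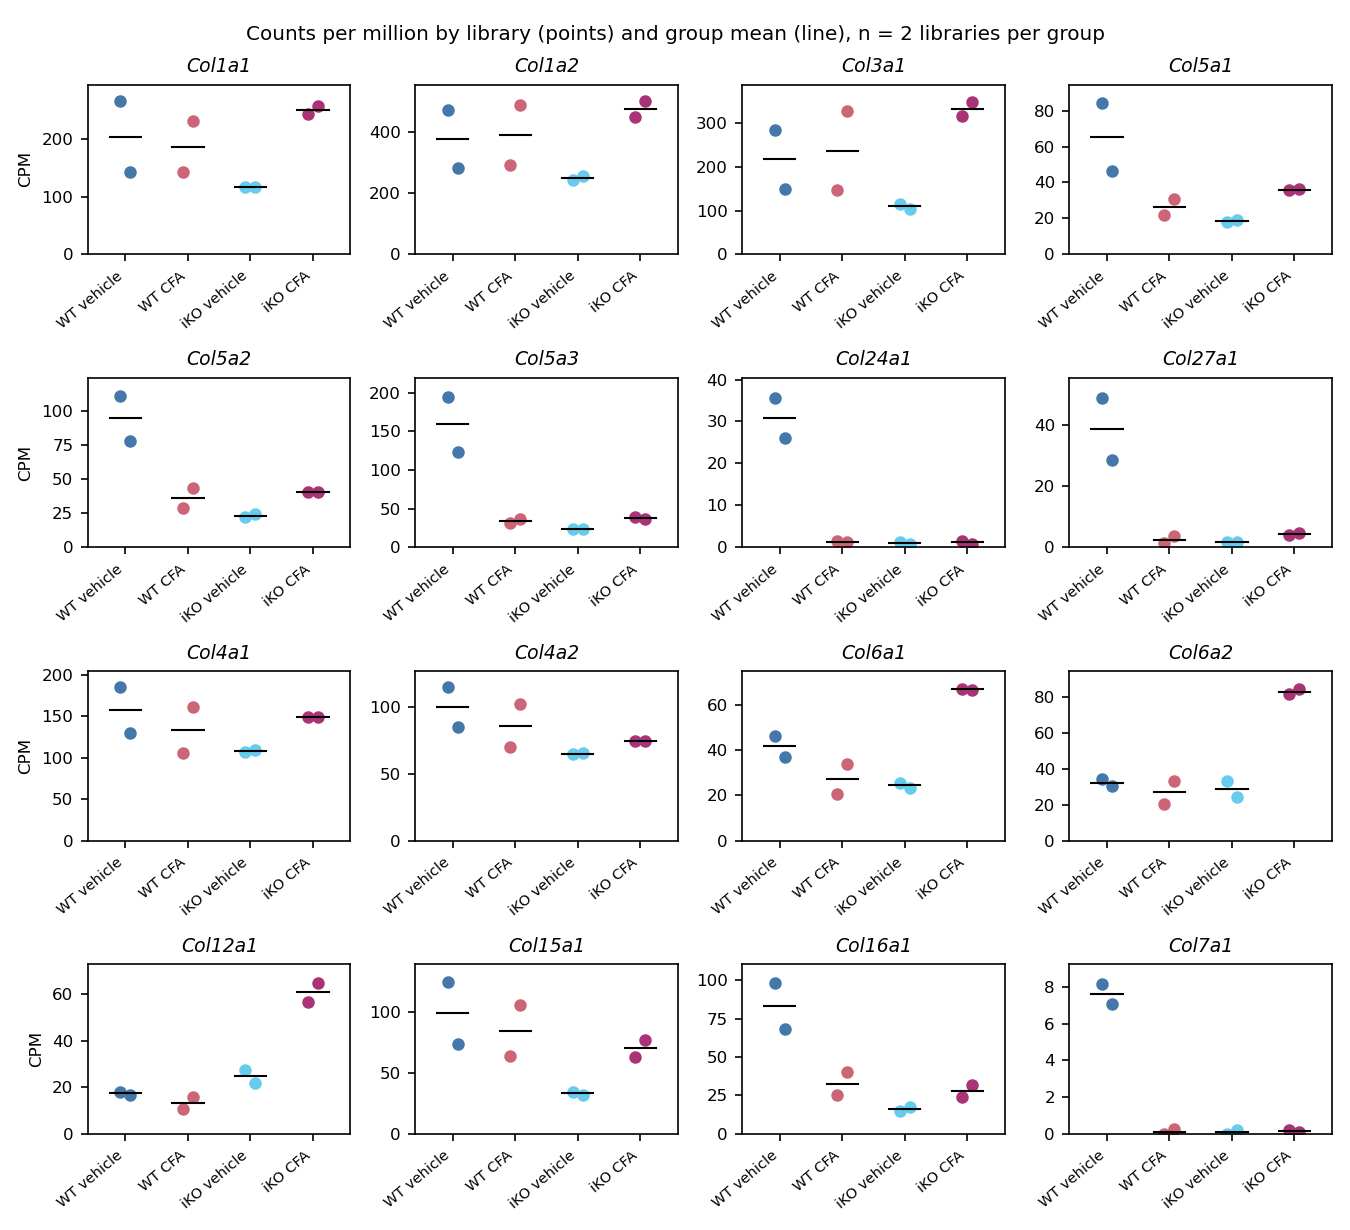
CPM of 16 collagen genes (1 panel each, linear axis from 0) in the 2 libraries of each group (points) with the group mean (line). Col24a1, Col27a1, Col5a3 and Col7a1 are high in the WT vehicle libraries alone, while Col12a1, Col6a1 and Col6a2 are highest in iKO CFA and Col1a1, Col1a2 and Col3a1 overlap between the WT groups.

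In the edgeR fit of all 8 libraries type IV collagen had 1 called gene in the WT response and 0 in the other comparisons. Its main chains were not among these calls. At an unadjusted p below 0.05, 2 of the 5 type IV genes tested were lower in iKO under vehicle (17.6% of all genes), where DESeq2 called Col4a2 and Col4a3 lower, and 1 had a positive interaction (15.7% of all genes). Col4a1 had 186 and 129.8 CPM in WT vehicle, 105 and 162 in WT CFA, 107 and 109.8 in iKO vehicle, with 149 and 149.7 in iKO CFA, and Col4a2 at 115 and 85.0, 69.8 and 103, 64.7 and 65.6, and 74.6 and 75.0 CPM. Both iKO vehicle libraries lay below both WT vehicle libraries, by log2 -0.54 ± 0.25 for Col4a1 and -0.62 ± 0.23 for Col4a2 (edgeR adjusted p = 0.163 and 0.0951, not called). In WT the CFA changes were -0.24 ± 0.25 and -0.22 ± 0.23 (adjusted p = 0.545 and 0.554). Both iKO CFA libraries lay above both iKO vehicle libraries for both genes. With both vehicle groups fitted alone both genes were called lower in iKO (edgeR adjusted p = 0.0287 and 0.0128), where 23.2% of all genes were lower. With both iKO groups fitted alone they were called higher with CFA (0.49 ± 0.07 and 0.23 ± 0.08, edgeR adjusted p = 0.000457 and 0.0407), where 22.0% of all genes were higher. The Col4a1 to Col4a2 read ratio was 1.51 to 1.67 in 6 libraries and 2.002 and 1.995 in the iKO CFA libraries.

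Among the minor type IV chains only Col4a3, a chain of the kidney and lung basement membrane, was called. It read 2.14 and 1.85 CPM in WT vehicle (64 and 62 reads), 0.347 and 0.274 in WT CFA (13 and 8 reads), 0.588 and 0.660 in iKO vehicle, with 0.452 and 0.493 in iKO CFA. The WT vehicle libraries were the highest, and Col4a3 fell by 2.66 ± 0.60 on the log2 scale with CFA in WT (edgeR adjusted p = 0.0221), while under vehicle iKO differed by -1.67 ± 0.57 (adjusted p = 0.0747, not called). Col4a4 ran from 3.10 to 5.13 CPM and Col4a5 from 1.87 to 6.40 over the 8 libraries, and neither was called in any comparison.

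The beaded filament collagens held 2 of the 3 genes that were higher in iKO than in WT under CFA. Col6a2, a chain of the main type VI trimer, had 34.1 and 30.1 CPM in WT vehicle, 20.5 and 33.3 in WT CFA, 33.4 and 24.3 in iKO vehicle, with 81.3 and 84.0 in iKO CFA. Col6a1 was at 46.3 and 36.9, 20.4 and 33.8, 25.5 and 23.4, and 66.9 and 66.6 CPM. The iKO CFA libraries were the highest for both genes, without overlap with any other group. Under CFA, iKO exceeded WT 3.07-fold for Col6a2 (log2 1.62 ± 0.26, edgeR adjusted p = 0.0226) and 2.47-fold for Col6a1 (1.30 ± 0.25, adjusted p = 0.0433). Without either iKO CFA replicate, either WT vehicle replicate or both WT vehicle libraries, both calls were lost. They were also lost when only the CFA groups were fitted (edgeR adjusted p = 0.297 for Col6a1 and 0.206 for Col6a2). Col6a1 alone was lost with RLE scaling, with a replicate block and without either iKO vehicle replicate. The other alternatives kept both calls.

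Col6a3, the long chain of that trimer, followed another order. It had 36.4 and 25.3 CPM in WT vehicle, 11.4 and 16.2 in WT CFA, 13.1 and 9.96 in iKO vehicle, with 21.5 and 23.8 in iKO CFA, so WT vehicle was the highest group. It fell by 1.16 ± 0.27 on the log2 scale with CFA in WT (edgeR adjusted p = 0.0228), and iKO was lower than WT under vehicle (-1.42 ± 0.27, adjusted p = 0.0115). The Col6a3 to Col6a1 read ratio was 0.685 and 0.786 in WT vehicle and 0.321 and 0.358 in iKO CFA, with the other 4 libraries between 0.426 and 0.558. The chains of type VI collagen were therefore not in a fixed ratio.

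The remaining beaded filament genes were low apart from Col28a1. Col28a1 had 139 and 106 CPM in WT vehicle, 91.3 and 169 in WT CFA, 91.4 and 115 in iKO vehicle, with 143 and 141 in iKO CFA. It was called in no comparison by the edgeR fit of all 8 libraries. Col6a6 had 21 and 17 reads in WT vehicle, 0 and 0 in WT CFA, 5 and 2 in iKO vehicle, with 5 and 8 in iKO CFA. Its call with CFA in WT (edgeR adjusted p = 0.0322) corresponds to a level at least 13.3-fold lower, taking 3 counts over the WT CFA group as the floor. Col6a5 (0.274 to 2.38 CPM) and Col6a4 (0.0274 to 1.33 CPM) were not called in the edgeR fit of all 8 libraries. DESeq2 called Col6a5 lower with CFA in WT.

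Among the FACIT collagens, Col12a1 and Col16a1 moved in different comparisons. Col12a1, whose protein binds type I fibrils in tendon and fascia, had 18.1 and 16.6 CPM in WT vehicle, 10.6 and 15.7 in WT CFA, 27.6 and 21.8 in iKO vehicle, with 56.7 and 64.7 in iKO CFA. Every iKO library lay above every WT library, and iKO CFA was the highest group. Under CFA it was 4.62-fold higher in iKO than in WT (log2 2.21 ± 0.24, edgeR adjusted p = 0.00362), a call lost only when those 2 groups were fitted alone (adjusted p = 0.09997). Under vehicle the difference was 0.51 ± 0.23 (adjusted p = 0.153). Its relative Col14a1 was at 20.7 to 41.7 CPM with no call in the edgeR fit of all 8 libraries. The Col12a1 to Col14a1 read ratio was 0.432 to 0.725 in the WT libraries and 0.832 to 1.55 in the iKO libraries.

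Col16a1, a FACIT gene of smooth muscle and fibroblasts, had 98.1 and 68.4 CPM in WT vehicle, 25.1 and 40.4 in WT CFA, 14.8 and 17.7 in iKO vehicle, with 23.9 and 31.5 in iKO CFA. WT vehicle was the highest and iKO vehicle the lowest group. It fell by 1.35 ± 0.29 on the log2 scale with CFA in WT (edgeR adjusted p = 0.0181) and was lower in iKO under vehicle by -2.36 ± 0.30 (adjusted p = 0.00258). Further FACIT genes were Col9a2 (4.44 to 23.1 CPM), Col9a3 (0.907 to 3.15), Col19a1 (0.877 to 5.26), Col20a1 (2.67 to 9.62) and Col22a1 (0.137 to 0.784). None of them was called in the edgeR fit of all 8 libraries. DESeq2 called Col20a1 lower with CFA in WT and Col9a2 and Col9a3 lower in iKO under vehicle. It also called Col9a2 higher with CFA in iKO. Col9a3 shares 234 exon bases with Tcfl5 on the opposite strand in GENCODE M21, and the strand setting of the counts was not stated, so its reads are uncertain.

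The multiplexins, collagens of vascular and epithelial basement membrane zones, were both lower in iKO under vehicle. Col18a1, the source of endostatin, had 95.8 and 69.5 CPM in WT vehicle, 25.6 and 46.5 in WT CFA, 26.7 and 30.1 in iKO vehicle, with 46.5 and 49.4 in iKO CFA. Col15a1 was at 124 and 73.8, 63.6 and 105, 34.3 and 32.2, and 63.2 and 76.6 CPM. WT vehicle exceeded iKO vehicle without overlap for both genes, while for Col15a1 the WT groups overlapped. The iKO difference under vehicle was log2 -1.54 ± 0.29 for Col18a1 and -1.57 ± 0.31 for Col15a1 (edgeR adjusted p = 0.0112 and 0.0131), and with CFA in WT Col18a1 fell by 1.20 ± 0.29 (adjusted p = 0.0262) where Col15a1 gave -0.23 ± 0.30 (adjusted p = 0.639).

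Col7a1, which encodes the anchoring fibrils under epithelia, had 243 and 238 reads in WT vehicle, 0 and 7 in WT CFA, 0 and 7 in iKO vehicle, with 7 and 4 in iKO CFA. These are 8.14 and 7.09 CPM in WT vehicle and at most 0.240 CPM in the other 6 libraries. The fitted changes were -6.07 ± 1.18 with CFA in WT and -6.27 ± 1.18 for iKO under vehicle (edgeR adjusted p = 0.0136 and 0.0116), with wide errors because of the few reads.

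The network-forming type VIII chains of vessels had another pattern. Col8a1 had 40.1 and 25.5 CPM in WT vehicle, 10.4 and 22.7 in WT CFA, 17.5 and 16.0 in iKO vehicle, with 33.3 and 37.4 in iKO CFA. The edgeR fit of all 8 libraries did not call it in the 4 pairwise comparisons. DESeq2 called it lower with CFA in WT and higher with CFA in iKO. Col8a2 was at 7.51 and 5.03, 2.91 and 12.8, 9.68 and 8.09, and 27.1 and 30.6 CPM, highest in iKO CFA. Its WT replicates under CFA disagreed so far that the WT change of 0.32 ± 0.55 (edgeR adjusted p = 0.732) became -1.10 ± 0.29 (adjusted p = 0.0158) without WT CFA replicate 2 and 1.02 ± 0.25 (adjusted p = 0.00953) without WT CFA replicate 1, so that it was called in opposite directions. Col10a1 stayed at 0.302 to 0.961 CPM.

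Of the transmembrane collagens only Col23a1 was abundant, at 79.8 and 46.7 CPM in WT vehicle, 39.0 and 66.9 in WT CFA, 38.5 and 41.96 in iKO vehicle, with 75.3 and 76.9 in iKO CFA. Col25a1, a neuronal transmembrane collagen, ran against the others, with 3.08 and 6.52, 6.22 and 2.98, 7.16 and 8.75, and 3.31 and 4.06 CPM, so iKO CFA lay below iKO vehicle (log2 -1.11 ± 0.45, edgeR adjusted p = 0.15, not called). Col13a1 and Col17a1 reached at most 1.06 and 0.548 CPM. Col26a1, outside these classes, was at 8.71 and 5.72, 5.82 and 15.6, 3.48 and 2.53, and 7.86 and 10.5 CPM. None of these 5 genes was called in any comparison by the edgeR fit of all 8 libraries.

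In iKO the CFA libraries lay above the vehicle libraries for most collagens, without a call in the joint fit. Both iKO CFA libraries exceeded both iKO vehicle libraries for 30 of 42 collagen genes and lay below them for 4, where 33.9% of all genes were above and 35.6% below. All 11 fibrillar genes had positive log2 changes, and 35 of 42 collagens did. The lowest edgeR adjusted p was 0.0831, shared by Col6a1 (log2 1.45 ± 0.25), Col6a2 (1.52 ± 0.26) and Col12a1 (1.30 ± 0.23). This null count changed with some settings, and the cause was not tested. It stayed at 0 with RLE scaling, with a replicate block and without both WT vehicle libraries. In these fits 0.0346%, 0% and 0% of all genes were called. Without a filter on low counts 4 collagens were higher (1.33% of all genes), and with the newer quasi-likelihood setting 3 (0.810%). DESeq2 called 17 collagens higher and 0 lower on the same 8 libraries, where it called 7.86% of all genes higher and 9.18% lower. edgeR called 22 higher and 2 lower without both WT CFA libraries (16.2% and 18.7% of all genes), and the same numbers without replicate 1 alone (14.5% and 17.6%) or replicate 2 alone (14.3% and 17.7%). With iKO groups alone 23 were higher and 2 lower (22.0% and 23.4% of all genes), including Col3a1 (1.63 ± 0.08), Col1a1 (1.12 ± 0.07), Col6a1 (1.48 ± 0.09) and Col12a1 (1.32 ± 0.12), with Col25a1 and Col20a1 the 2 lower genes.

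The CFA response differed between genotypes for 15 collagen genes by the interaction test, all more positive in iKO: 7 fibrillar genes, Col6a1, Col6a2, Col6a3, Col12a1, Col16a1, Col18a1, Col8a1 and Col7a1. For Col6a1 the interaction was 2.07 ± 0.35 (edgeR adjusted p = 0.0127), made of a WT change of -0.62 ± 0.25 and an iKO change of 1.45 ± 0.25. For Col12a1 it was 1.70 ± 0.33 (adjusted p = 0.019), made of -0.40 ± 0.23 and 1.30 ± 0.23. In Col24a1 (4.58 ± 0.48, adjusted p = 0.00241) it came from the WT fall, since the iKO change was 0.11 ± 0.35. No type IV gene passed, with Col4a1 at 0.70 ± 0.35 (adjusted p = 0.209). Without WT vehicle replicate 1 or without iKO vehicle replicate 2 the count was 3, Col5a3, Col24a1 and Col27a1 (1.04% and 1.69% of all genes positive). Without iKO vehicle replicate 1 or iKO CFA replicate 2 it was 4 (2.35% and 2.13%), without iKO CFA replicate 1 it was 6 (2.36%), and without WT CFA replicate 2 it was 28 (16.9%).

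Some cell type marker lists moved with the abundant collagens and others did not. The summed level of 10 fibroblast markers was 3772 and 2695 CPM in WT vehicle, 2085 and 5507 in WT CFA, 1861 and 2177 in iKO vehicle, with 4722 and 4752 in iKO CFA, and 1 of the 10 was at 0 in WT CFA replicate 2. This is the order of Col3a1 in the replicates of each WT group and between both iKO groups. For 8 myelinating Schwann cell markers the sums were 12224 and 7037, 7872 and 18967, 6643 and 7608, and 16969 and 15779 CPM. For 7 macrophage markers they were 605.5 and 435.7, 140 and 379, 144 and 105, and 568 and 618 CPM, and for 9 endothelial markers 187 and 166, 124 and 212, 111 and 124, and 228 and 234 CPM. The 8 neuronal markers ran the other way, at 8557 and 11067, 18793 and 13602, 17730 and 17992, and 12779 and 12578 CPM. The sums of 5 non-myelinating Schwann cell markers were 1346 and 1496, 2267 and 1435, 2429 and 2334, and 1470 and 1377 CPM, but these markers disagreed. Ngfr had 357 and 501, 882 and 529, 1174 and 1121, and 756 and 741 CPM. Scn7a had 573 and 520, 546 and 486, 508 and 490, and 326 and 321 CPM. In both comparisons with the WT vehicle libraries 3 of these 5 markers had positive and 2 negative log2 changes. For 8 pericyte and smooth muscle markers the sums were 223 and 216, 303 and 317, 257 and 236, and 360.0 and 361 CPM, higher with CFA in both genotypes without overlap. Most of each sum was Rgs5, at 152 and 155, 250 and 255, 212 and 182, and 277 and 272 CPM. With CFA in WT 3 of the 8 markers had positive and 5 negative log2 changes (median -0.14), while in iKO all 8 were positive. The 5 perineurial markers gave 207 and 157, 136 and 176, 127 and 144, and 204 and 191 CPM, and 6 satellite glia markers 3722 and 3473, 4454 and 8381, 4133 and 4308, and 6311 and 6577 CPM. The 4 adipocyte markers measured summed to 33.4 and 42.8 CPM in iKO CFA and to 1.01 to 7.67 elsewhere. Their part in the collagen results was not tested. All 6 RNA-state genes were lower in both comparisons with the WT vehicle libraries, and their part was not tested.

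Gene length was compared with the changes as a description. Across the 42 tested collagens the log2 change with CFA in WT had a Spearman correlation of -0.49 with exon length, so longer collagens had the more negative changes, and that of iKO against WT under CFA had 0.37. With the span of the gene on the chromosome the values were -0.05 and -0.09. For CFA in iKO, iKO against WT under vehicle and the interaction, exon length gave -0.21, -0.13 and 0.35, and gene span -0.38, 0.14 and -0.19. Over the 76.9% of all genes with a length, exon length gave -0.24 with CFA in WT and -0.28 for iKO against WT under CFA. With gene span these were -0.17 and -0.20. For CFA in iKO, iKO against WT under vehicle and the interaction, exon length gave -0.41, -0.02 and -0.13 over these genes. Gene span gave -0.32, 0.0050 and -0.11 in the same order. The negative trend with exon length for CFA in WT was therefore not confined to collagens. For iKO against WT under CFA and the interaction, the collagens had the opposite sign for exon length. These values describe only the genes with a length. The points share the same libraries, and genes are not independent replicates.

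The genes that make, cut and hold collagen were taken from 8 lists with 108 members, of which 107 were tested. With CFA in WT 5 were higher and 18 lower (8.12% and 8.71% of all genes), under vehicle 4 were higher and 22 lower in iKO (8.28% and 9.33%), and under CFA 8 were higher and 0 lower in iKO (1.50% and 0.208%). With CFA in iKO edgeR called 0, with 46 higher and 7 lower at an unadjusted p below 0.05 (13.8% and 14.8% of all genes), and DESeq2 called 32 higher and 6 lower (7.86% and 9.18%). The enzymes that hydroxylate and glycosylate the chains held 3 of the 5 that rose in WT with CFA, which is 3 of its 15 members where 8.12% of all genes rose, and 0 of 15 fell: Ppib, a prolyl isomerase, by log2 1.17 ± 0.25 (edgeR adjusted p = 0.0175), P4ha3, a prolyl hydroxylase subunit, by 0.77 ± 0.21 (0.0398) and Colgalt2, a galactosyltransferase, by 0.68 ± 0.19 (0.0433). Among 11 folding and export genes only Serpinh1, the collagen chaperone HSP47, was called, lower in iKO under vehicle (-1.12 ± 0.32, edgeR adjusted p = 0.0443). Serpinh1 had 256 and 158 CPM in WT vehicle, 144 and 263 in WT CFA, 101 and 90.1 in iKO vehicle, with 253 and 275 in iKO CFA, so that, as for Col1a1 and Col3a1, the WT groups overlapped and iKO CFA lay above iKO vehicle.

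**Figure D5:**
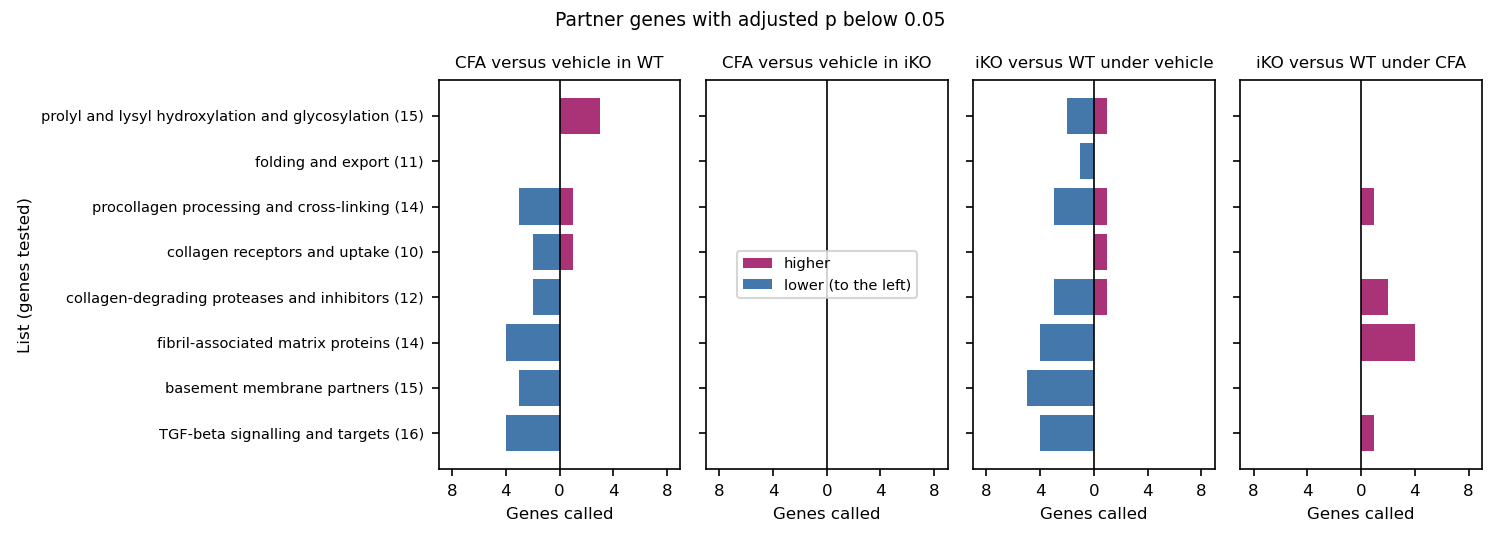
Number of genes called higher (bars to the right) and lower (bars to the left) in each of the 8 lists of collagen-related genes, 1 panel for each pairwise comparison. Calls are mostly lower in the WT response (18 of 107) and under vehicle (22 of 107), absent in the iKO response, and only higher (8 of 107) under CFA.

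The list for procollagen processing and cross-linking held 14 genes. Pcolce2, an enhancer of propeptide cleavage, was higher in WT with CFA (log2 1.12 ± 0.18, edgeR adjusted p = 0.00721). It was also called higher in iKO than in WT under vehicle (1.20 ± 0.18, edgeR adjusted p = 0.00506). Pxdn, the peroxidase that cross-links type IV collagen, was lower in WT with CFA (-1.24 ± 0.22, adjusted p = 0.011). Loxl1, a lysyl oxidase-like enzyme, was higher in iKO than in WT under CFA (1.75 ± 0.26, adjusted p = 0.0166). Its levels were 4.12 and 3.69 CPM in WT vehicle, 3.07 and 3.97 in WT CFA, 5.32 and 4.76 in iKO vehicle, with 11.0 and 12.6 in iKO CFA, without overlap of iKO and WT. The receptor Ddr1 was 0.81 ± 0.17 higher and the integrin chain Itga10 -2.10 ± 0.43 lower with CFA in WT (log2, edgeR adjusted p = 0.0164 and 0.016). Ddr1 was also called higher in iKO than in WT under vehicle (0.57 ± 0.17, edgeR adjusted p = 0.0480).

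Matrix proteins bound to fibrils held 4 of the 8 genes that were higher in iKO under CFA: Thbs1, Fmod, Bgn and Fn1. Fmod, the proteoglycan fibromodulin, had 0.838 and 2.38 CPM in WT vehicle, 2.08 and 5.41 in WT CFA, 4.36 and 5.40 in iKO vehicle, with 29.7 and 41.1 in iKO CFA (log2 3.25 ± 0.54, edgeR adjusted p = 0.0243). Thbs1, a matricellular protein that can activate TGF-beta, was at 137 and 73.6, 11.2 and 15.02, 22.0 and 17.7, and 55.9 and 55.0 CPM. It fell by 3.01 ± 0.32 with CFA in WT (adjusted p = 0.0016) and exceeded WT by 2.08 ± 0.31 in iKO under CFA (adjusted p = 0.0146). Tnc, tenascin C, had 19.4 and 14.0 CPM in WT vehicle against 2.16 to 5.45 elsewhere, a fall of 2.79 ± 0.30 with CFA in WT (adjusted p = 0.00172).

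Collagen-cutting proteases included the largest log2 difference of these lists under CFA. Mmp9, a gelatinase, had 2.38 and 1.52 CPM in WT vehicle, 1.18 and 4.86 in WT CFA, 5.07 and 2.53 in iKO vehicle, with 55.0 and 59.6 in iKO CFA (log2 4.27 ± 0.61 for iKO against WT under CFA, edgeR adjusted p = 0.014). Mmp8, the neutrophil collagenase, was also higher there (4.15 ± 0.79, adjusted p = 0.0416). Basement membrane partners had 0 calls higher in the 4 pairwise comparisons by edgeR and 1 by DESeq2 (in iKO with CFA). At most 2 of 15 were higher in any of them at an unadjusted p below 0.05. Lama5, a laminin chain, fell by 2.06 ± 0.34 and Agrn, agrin, by 1.52 ± 0.25 with CFA in WT (edgeR adjusted p = 0.00775 and 0.00827). Both were high in the WT vehicle libraries alone. Lama5 had 38.0 and 24.5 CPM there against 5.45 to 10.4 elsewhere, and Agrn 104 and 85.2 against 26.8 to 39.8. In the TGF-beta list Smad3, a TGF-beta signal carrier, fell by 1.36 ± 0.25 with CFA in WT (edgeR adjusted p = 0.0111). Smad3 had 19.9 and 14.7 CPM in WT vehicle against 4.53 to 10.6 elsewhere. Ltbp4 was the 1 gene of 16 that was higher in iKO under CFA (1.58 ± 0.26, adjusted p = 0.0243).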

How the data were processed

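The authors deposited unscaled read counts by gene symbol, 1 file for each of 8 libraries of mouse DRG. Per the submitters' processing notes they used HISAT2 2.2.1, SAMtools 1.19.2, featureCounts 2.0.6 and DESeq2 with the assembly GRCm39; the annotation and strand setting are not given in the sources used here. The analysis used edgeR 4.0.16 in R 4.3.3: filterByExpr left 20235 of 25780 genes, library sizes were scaled by TMM (also for CPM), and 1 quasi-likelihood model with a mean for each of 4 groups gave two-sided tests of 5 comparisons, adjusted over all tested genes (threshold 0.05). The procedure was tested on simulated data. Alternatives were DESeq2 1.42.0, RLE scaling, no filter, another quasi-likelihood setting, a replicate block, only the groups compared, and each library left out; leaving out both WT CFA or both WT vehicle libraries was chosen after seeing the data. The members and lists were chosen with earlier results of these data known. Named were up to 10 called, non-overlapping members per direction with the largest changes and the 2 members with most reads per class, and the other called members were chosen after their values were seen, as were the list genes beyond the 4 with the smallest p. Sequences came from RefSeq and exon lengths from GENCODE M21. Read totals of 26312614 to 42971823 bound the counting error, and 2 libraries per group limit the precision. A gene that the naming rule selects among the related lists is not reported here.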

Additional observations from a re-analysis of the deposited data

Results flagged for a closer look

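The CFA response differed between WT and iKO for 15 collagen genes by a test of the difference itself (edgeR quasi-likelihood interaction, adjusted p below 0.05). The log2 difference, iKO response minus WT response, was 2.27 for Col5a1, 2.18 for Col5a2, 2.93 for Col5a3, 1.62 for Col11a1, 3.03 for Col11a2, 4.58 for Col24a1 and 5.28 for Col27a1 among the fibrillar genes. Among the others it was 2.07 for Col6a1, 1.78 for Col6a2, 2.13 for Col6a3, 1.70 for Col12a1, 2.12 for Col16a1, 1.95 for Col18a1, 2.07 for Col8a1 and 6.78 for Col7a1. All use the WT vehicle libraries, in which Malat1 was at 1187 to 1323 CPM against 27.4 to 57.0 elsewhere, and its part in these differences was not tested.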

How the results depend on the processing

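Col24a1, Col27a1 and Col5a3 kept their calls under each alternative run for the WT response, for iKO against WT under vehicle and for the interaction. None of these alternatives left out both WT vehicle libraries, so they cannot separate the calls from the state of those libraries. Over the members that the naming rule selected in each comparison, and all alternatives, 39 values changed sign. Col8a2 was among them, at -1.10 in WT without WT CFA replicate 2. Sign changes of the other members were not counted. With 2 libraries per group, the spread depends on which groups are fitted, and the cause of the changes was not tested. When only the 2 groups compared were fitted, 4 collagens were lower in the WT response (3.84% of all genes). In the iKO response 23 were higher and 2 lower (22.0% and 23.4%). Under vehicle 28 were lower in iKO (23.2%), and under CFA 0 were higher (0.166%). DESeq2 gave 17 higher in the iKO response (7.86% of all genes) and 22 lower in iKO under vehicle (14.5%). Without a filter 4 (1.33% of all genes), and with the newer quasi-likelihood setting 3 (0.810%), were higher in the iKO response. Other fits were added after seeing the data. Without both WT CFA libraries 22 were higher and 2 lower in the iKO response (16.2% and 18.7% of all genes). In the same fit 27 were lower and 1 higher in iKO under vehicle (21.4% and 20.2%). Without both WT vehicle libraries 1 was higher in iKO under CFA (0.782%).

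Leaving out single libraries gave 3 to 20 lower and 0 to 2 higher in the WT response, 0 to 22 higher and 0 to 2 lower in the iKO response, 5 to 27 lower and 0 to 1 higher in iKO under vehicle, 1 to 12 higher under CFA, and 3 to 28 positive and 0 to 1 negative interactions. Replicate numbers are shared between groups without a stated pairing, and deviations of same-numbered libraries correlated at -0.27 to 0.10. With the replicate block the counts were 12 lower, 0, 13 lower, 2 higher and 13 positive in the 5 comparisons, in the same order. The shares of all genes called in these directions were 6.70%, 0%, 7.01%, 0.914% and 4.15%. RLE scaling moved the iKO vehicle sums to 545 CPM (fibrillar) and 177 CPM (type IV) and the type IV sum of iKO CFA to 232 CPM. Leaving out single libraries, the iKO vehicle sums were 558.5 to 565 CPM for fibrillar, 181 to 184 CPM for type IV and 385 to 404 CPM for other collagens, and the type IV sum of iKO CFA was 231.5 to 231.6 CPM.

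In the WT response Col14a1 (0.01) became -0.0073 with DESeq2, -0.0078 with RLE scaling, -0.0026 without a filter, -0.028 with the replicate block and -0.038 with 2 groups, and Col1a2 became -0.0062 with 2 groups. Leaving out single libraries, the WT response ran from -0.37 to 0.47 for Col1a2, -0.57 to 0.66 for Col3a1, -0.58 to 0.042 for Col4a1, -0.52 to 0.027 for Col4a2, -0.42 to 0.46 for Col28a1, -0.65 to 0.045 for Col6a2, -0.45 to 0.36 for Col14a1, -0.63 to 0.20 for Col15a1, -0.70 to 0.18 for Col23a1, -0.70 to 0.57 for Col25a1, -1.10 to 1.02 for Col8a2 and -0.31 to 1.11 for Col26a1. In iKO against WT it ran under vehicle from -0.40 to 0.059 for Col6a2 and -0.53 to 0.018 for Col14a1, and under CFA from -0.037 to 0.70 for Col1a2, -0.11 to 0.50 for Col4a1, -0.45 to 0.092 for Col4a2, -0.25 to 0.63 for Col28a1, -0.54 to 0.14 for Col16a1, -0.59 to 0.13 for Col15a1, -0.76 to 0.31 for Col25a1 and -0.77 to 0.65 for Col26a1. The interaction of Col28a1 ran from -0.0091 to 0.87.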
